A study of Mus musculus with 8 samples.

Results

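The cytosolic ribosomal protein genes of the embryonic mouse retina were examined. Members were the rows whose symbol begins with Rpl or Rps followed by a digit, together with Rplp0, Rplp1, Rplp2 and Rpsa. Symbols containing -ps, Rps6k kinases and symbols ending in Rik were left out. Of 96 symbols matched in a table of 57180 genes, 91 held at least 5 counts in at least 4 of 8 libraries, 52 with large subunit names and 39 with small subunit names, among 14730 genes tested in all. Rps19bp1, which encodes a protein that binds Rps19, and Rpl7l1, a relative of Rpl7, are matched by name although neither is a standard component of the mature ribosome.

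Ribosomal proteins and ribosomal RNA form the large and small subunits that translate all nuclear messenger RNA. In mammals these transcripts are made in near-stoichiometric amounts, and most begin with a C followed by a run of pyrimidines, the 5′ terminal oligopyrimidine (TOP) motif, through which LARP1 and the kinase complex mTORC1 control their translation. Dividing retinal progenitors need new ribosomes for each division, and Sonic hedgehog signals received through Smo promote the proliferation of these cells.

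Retinas were profiled by 3′-Tag-Seq, which counts reads near the 3′ end of each transcript, in 4 control and 4 Rax-SmoCKO libraries. All 8 carried Smo CKO/CKO, a conditional Smo allele. The controls had no Cre, whereas the Rax-SmoCKO retinas also carried the Rax-Cre transgene, active throughout the derivatives of the optic vesicle. With 0 libraries that carried Rax-Cre and intact Smo, the transgene and the loss of Smo cannot be told apart. All lines were kept on a CD1 background. The series describes embryonic day 13, while the cell type field of the samples runs from day 13 to day 20 over the 8 libraries, a different day for each. The sources used here do not state whether the libraries came from separate embryos, so p-values measure the spread between these libraries, which may be technical.

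Libraries held 3017480 to 4615667 counts. The targeted gene Smo measured 16.4 to 23.9 CPM (counts scaled to a common library size) in controls and 2.86 to 4.97 CPM in Rax-SmoCKO retinas, and the Hedgehog target Gli1 measured 11.8 to 28.1 and 0.716 to 4.10 CPM. Whether the 3′ tag of Smo falls in the part of the gene that Cre removes was not established here. Control 2 stood apart with 86696 counts of lens genes, against at most 2295 in any other library. Rax-SmoCKO 2 and 3 were the libraries with Y-linked counts (1131 and 893, against at most 1 elsewhere). Xist, the RNA of the inactive X chromosome, held 2 and 0 counts in them and 1389 to 3106 in the other libraries. By these genes Rax-SmoCKO 2 and 3 were male and all other libraries female, so sex was not balanced between the genotypes. All 12 progenitor markers had fold changes below 0, with a summed level of 9771 to 10270 CPM in controls and 8377 to 9014 CPM in Rax-SmoCKO retinas, while 11 of 12 retinal ganglion cell (RGC) markers lay above 0 (4242 to 5048 and 4878 to 6932 CPM). None of the markers in either list was at 0 in every library.

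To show the start sites that the TOP background refers to, the 40 bases around the annotated start of 4 members are given, 20 before it and 20 from it, on the gene's own strand (RefSeq, GRCm38.p6). Rps9 and Rpl13a were among the members with the smallest p, Rps18 is one of the genes whose level split between libraries, and Rpl38 is the member whose mutation in the mouse alters the axial skeleton. Capitals mark a run of at least 7 C or T that is led by C and begins within 20 bases of the start.
Rps9 (chr7:3704021-3704060, + strand): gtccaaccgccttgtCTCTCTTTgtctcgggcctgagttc
Rpl13a (chr7:45128726-45128765, - strand): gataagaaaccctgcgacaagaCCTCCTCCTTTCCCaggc
Rps18 (chr17:33955646-33955685, - strand): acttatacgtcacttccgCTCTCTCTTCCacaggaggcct
Rpl38 (chr11:114668560-114668599, + strand): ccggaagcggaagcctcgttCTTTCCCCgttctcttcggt
The run is longest in Rpl13a, with 14 bases, and measures 11 in Rps18 and 8 in Rps9 and Rpl38.

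Such a run was found for 38 of the 65 members with a RefSeq window (58.5%), or in 52.6% of their 76 windows, and in 21.2% of all 32851 windows of the same length. CCGGAAG, sought on both strands of the whole window of 300 bases, stood in 34.2% of the member windows and 8.86% of all windows. TATAAA on the sense strand was at 9.21% and 8.32%. Each match describes the letters only.

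No ribosomal protein gene passed the test between genotypes. With edgeR's quasi-likelihood test and Benjamini-Hochberg adjustment over all genes tested, 0 of 91 members had an adjusted p under 0.05, against a background of 0.095% (14 of 14730 genes, or 0.0339% higher and 0.0611% lower). At an unadjusted p under 0.05, 3 members were higher and 1 was lower in Rax-SmoCKO retinas, or 4.4% of the members against 9.48% of all genes. Among genes at or over 50 CPM the shares were 2.56% of members and 13.4% of all genes. DESeq2 and limma-voom also called 0 members, with 3 and 6 at an unadjusted p under 0.05, although 9 members received no adjusted p from DESeq2. Fewer cells of a type and less RNA per cell cannot be told apart in these bulk samples.

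The fold changes were small as well as uncalled. The median log2 fold change (Rax-SmoCKO over control) was 0.027 over the 91 members and -0.0018 over all genes, with member values from -0.22 to 0.41. The 95% interval lay within 0.5 of 0 on the log2 scale for 80 of 91 members (87.9%), against 55.7% of all genes, and within 1 of 0 for all 91 members, against 81.6% of all genes. The median level was 396 CPM over members and 24.1 CPM over all genes. At or over 50 CPM, the interval lay within 0.5 of 0 for 97.4% of members and 95.7% of all genes. Large subunit genes had a median of 0.040 and small subunit genes one of 0.0067.

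**Figure D1:**
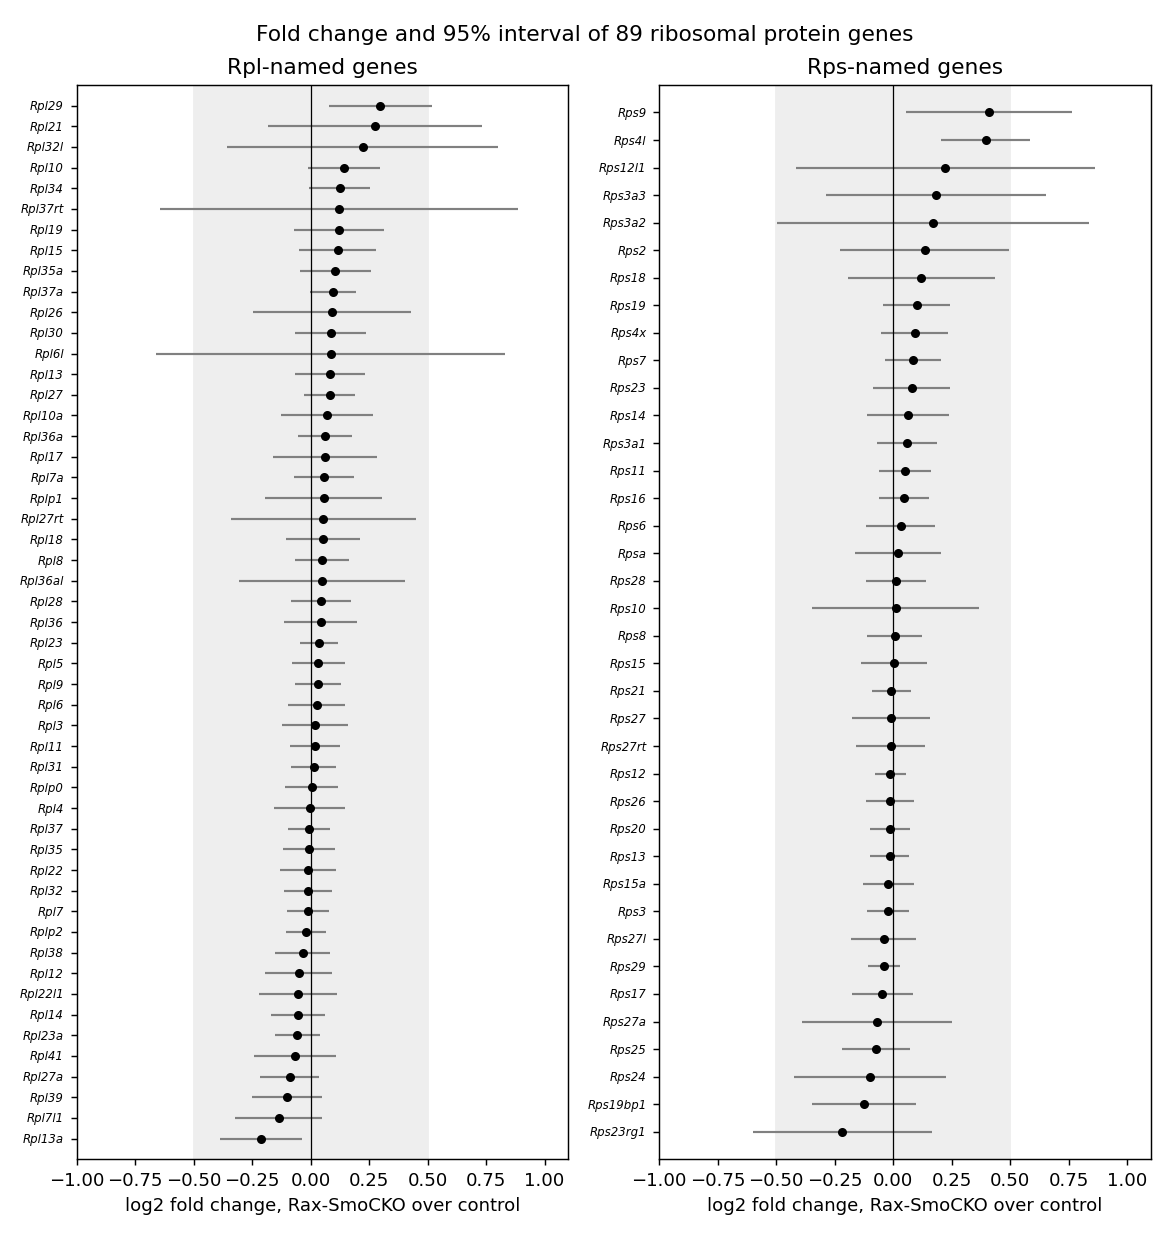
Log2 fold change of 89 of the 91 genes, Rax-SmoCKO over control, with its 95% interval from the edgeR fit; large subunit names on the left, small subunit names on the right, and the range from -0.5 to 0.5 shaded. The intervals of 78 genes lie inside the shaded range, and the wide ones belong mostly to genes of low count such as Rpl37rt and Rpl6l.

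Of the members, 55 lay above 0 and 36 below (60.4% above, against 49.6% of all genes), but this balance depended on Rax-SmoCKO 2 and 3. With a covariate for Y-linked counts, 30 members lay above 0 and the median was -0.040, and without Rax-SmoCKO 2 and 3 the count was 31 and the median -0.036. Leaving out each library in turn gave 46 to 65 members above 0 and medians of 0.0036 to 0.054, so no single library turned the sign. The sign of the median thus depended on Rax-SmoCKO 2 and 3 together, the male libraries. The same 2 libraries also held the highest summed levels of pigment epithelium markers (405 and 643 CPM, against at most 281 CPM elsewhere), of periocular mesenchyme markers (315 and 165 CPM, against at most 147 CPM) and of endothelium markers (257 and 229 CPM, against at most 203 CPM). The part of each in the sign was not tested.

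Summed over the members, ribosomal protein genes took 3.93% ± 0.068 of the counts in controls and 4.00% ± 0.22 in Rax-SmoCKO retinas (SD, n = 4). By library the share was 3.90%, 3.93%, 3.87% and 4.03% in controls 1 to 4 and 3.88%, 4.14%, 4.22% and 3.75% in Rax-SmoCKO 1 to 4. Both the highest and the lowest share belonged to Rax-SmoCKO libraries, and the groups overlapped. Rax-SmoCKO 3 was the highest library for 32 members and Rax-SmoCKO 4 the lowest for 28, followed by control 3, the lowest for 25. Counting error is small beside this spread, since the exact 95% binomial interval of the share in Rax-SmoCKO 4 runs from 3.73% to 3.77%. Large subunit counts were 1.01 to 1.07 times those of the small subunit in every library.

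**Figure D2:**
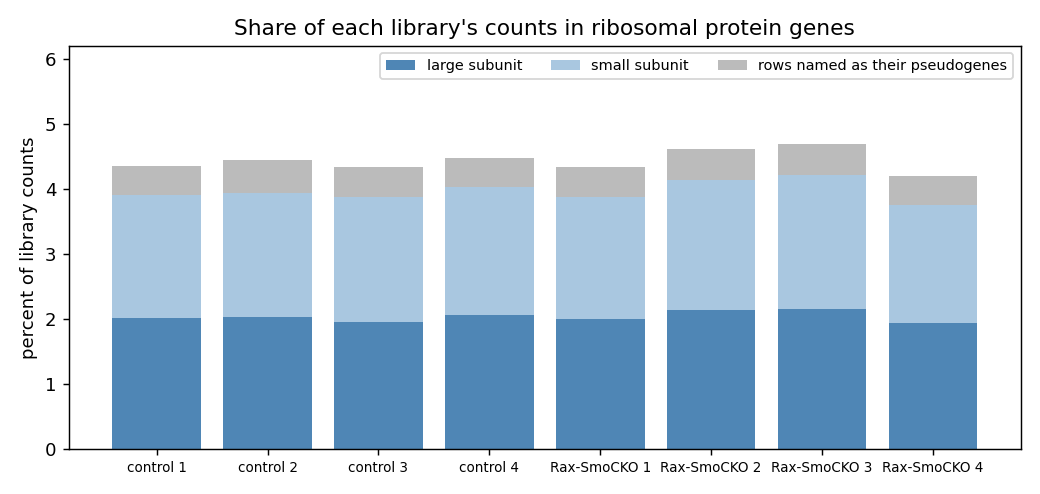
Percent of each library's counts in large subunit genes, small subunit genes and the table's rows named as pseudogenes of them. The gene shares add up to 3.75% to 4.22%, and the pseudogene rows add 0.449% to 0.506%.

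Of the 3 members that were higher at an unadjusted p, Rps4l had the smallest value. Rps4l (ENSMUSG00000063171, chr6:148354656-148355598 on GRCm38) is an autosomal relative of the X-linked small subunit gene Rps4x. It measured 33.2, 39.9, 34.0 and 38.2 CPM in controls 1 to 4 and 44.4, 47.9, 51.5 and 48.0 CPM in Rax-SmoCKO 1 to 4. Every Rax-SmoCKO library was above every control library. The log2 fold change was 0.40 (SE 0.088, 95% interval 0.21 to 0.59), with an edgeR unadjusted p of 0.00064 and an adjusted p of 0.16. It ranged from 0.36 to 0.45 when each library was left out. Without a filter on low counts, where 289 genes were called in all, Rps4l and Rps9 passed, with adjusted p of 0.023 and 0.0023. The annotated transcript of Rps4l is as long as its gene body of 943 bases, and Rps4x itself had a log2 fold change of 0.093.

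Rps9, an early-binding protein of the small subunit (ENSMUSG00000006333, chr7:3703993-3706897), was the other small subunit gene with groups apart. Its levels were 176, 353, 349.9 and 265 CPM in controls 1 to 4 and 372, 382, 398 and 369 CPM in Rax-SmoCKO 1 to 4. The 4 Rax-SmoCKO libraries and controls 2 and 3 lay close together, and controls 1 and 4 lay far below them. The log2 fold change of 0.41 (SE 0.16, interval 0.053 to 0.76, unadjusted p 0.028, adjusted p 0.46 in edgeR) fell to 0.24 without control 1. The only other row that shares at least 10% of its 3′ end did not make up the gap, at 67.7 and 70.8 CPM in controls 1 and 4 and 74.3 to 91.7 CPM in the others.

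Rpl29 (ENSMUSG00000048758, chr9:106429454-106431568) encodes a large subunit protein whose loss slows growth in the mouse. It measured 36.5, 30.4, 28.1 and 27.8 CPM in controls and 38.2, 36.9, 39.6 and 35.3 CPM in Rax-SmoCKO retinas. Control 1 alone reached into the Rax-SmoCKO range. The log2 fold change was 0.30 (SE 0.10, interval 0.077 to 0.52), with an edgeR adjusted p of 0.38.

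Rpl13a (ENSMUSG00000074129, chr7:45125558-45128761) was the member with the smallest p below 0. Besides its place in the large subunit, its protein takes part in silencing the translation of inflammatory transcripts in human macrophages. Controls 1 to 4 measured 89.5, 95.6, 95.3 and 91 CPM, and Rax-SmoCKO 1 to 4 measured 70.1, 90.7, 83.6 and 75.7 CPM. Only Rax-SmoCKO 2 fell within the control range. The log2 fold change was -0.21 (SE 0.080, interval -0.39 to -0.039, edgeR adjusted p 0.44), and -0.13 with the counts of the Rpl13a pseudogene row added, which holds 34.4% of the joint counts.

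**Figure D3:**
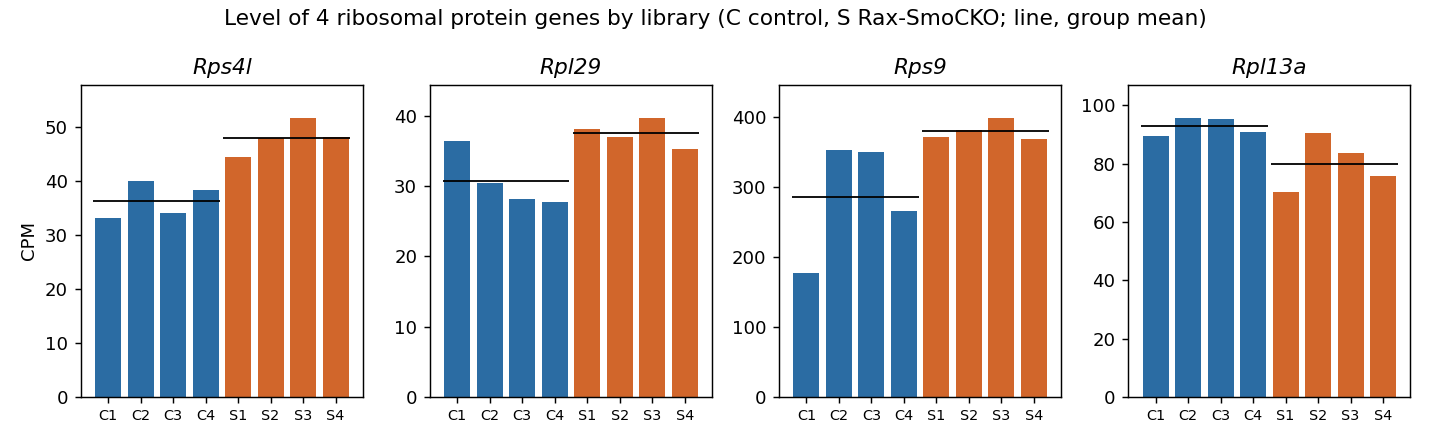
CPM of Rps4l, Rpl29, Rps9 and Rpl13a in each library (C1 to C4, control; S1 to S4, Rax-SmoCKO), with a line at each group's mean. Rps4l is above 44 CPM in every Rax-SmoCKO library and below 40 CPM in every control, whereas the Rps9 difference follows controls 1 and 4.

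Members whose groups did not overlap numbered 3 higher and 1 lower (4.4%), against 5.7% of all genes, 2.66% higher and 3.03% lower. Among genes at or over 50 CPM the shares were 3.85% of members and 8.11% of all genes. The other members besides Rps4l and Rps9 were Rpl34, a large subunit gene at 199 to 213 CPM in controls and 216 to 243 CPM in Rax-SmoCKO retinas (log2 fold change 0.12, adjusted p 0.56), and Rpl27a, at 133 to 144 and 123 to 132 CPM (-0.090, adjusted p 0.67). Rpl37a (0.095) and Rpl10 (0.14), which joins the large subunit late in its maturation, followed among the smallest p above 0. Rpl7l1 (-0.14) and the exit tunnel gene Rpl39 (-0.10) followed below 0, with edgeR adjusted p of 0.53 to 0.68 for these 4. The lowest log2 fold change, -0.22, belonged to Rps23rg1, which held only 8.09 to 12.9 CPM in any library. It was matched by name and overlaps the processed pseudogene Rps23-ps2 on the opposite strand. Whether it encodes a ribosomal protein was not established here. Rps19bp1 measured 46.6 to 64.3 CPM in controls and 43.9 to 51.0 CPM in Rax-SmoCKO retinas (-0.12).

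Grouped by place in the ribosome, the members showed medians close to 0 and 0 calls in each group. The P stalk, which recruits elongation factors, is built from Rplp0, Rplp1, Rplp2 and Rpl12, and these had a median log2 fold change of -0.0081. Rpl5 and Rpl11, which carry the 5S RNA into the large subunit and bind Mdm2 when assembly fails, summed to 762 to 824 CPM in controls and 783 to 837 CPM in Rax-SmoCKO retinas. The 8 genes at the peptide exit tunnel had a median of 0.0043, and the 4 of mRNA entry and decoding (Rps2, Rps3, Rps15 and Rps23) one of 0.041. Of 9 genes mutated in human Diamond-Blackfan anaemia, 6 were above 0 and 3 below, with values from -0.10 to 0.11. All of these intervals lay within 0.5 of 0.

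Of the matched symbols, Rpl38 and Rpl24 are the best known from mouse developmental mutants, and Rpl24 mutants also have eye defects. Rpl38 measured 510.3 to 586 CPM in controls and 510.0 to 560.4 CPM in Rax-SmoCKO retinas, with a log2 fold change of -0.034 (interval -0.15 to 0.084). Rpl24 could not be followed. It held 2, 1, 1 and 3 counts in controls and 7, 8, 5 and 3 in Rax-SmoCKO retinas and did not pass the count filter, while the row Gm9385, which shares its 3′ end, measured 149.5 to 206 CPM. The remaining symbols that did not pass were Rpl39l, Rpl3l, Rpl10l and a second row named Rpl37rt, each at 0 or 1 count per library.

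No ratio within the related gene pairs passed its test. Rpl22l1 made up 27.7% ± 1.5 of the joint counts of Rpl22l1 and Rpl22 in controls and 27.1% ± 0.84 in Rax-SmoCKO retinas (SD, n = 4), and the log2 ratio differed by -0.043 (exact permutation test, two-sided, p = 0.51). The share of Rps27l in Rps27l and Rps27 was 23.1% ± 1.7 and 22.6% ± 0.66 (difference in log2 ratio -0.038, exact p = 0.69), and Rpl36al made up 4.17% ± 0.36 and 4.14% ± 0.83 with Rpl36a (-0.027, exact p = 0.86). Rps27rt to Rps27 differed by -0.0076 (exact p = 1). Adjusted over the 4 pairs, p was 1 for each. The smallest p this design allows is 0.029 before adjustment. After adjustment over the 4 pairs, a single pair that differed alone could not reach the threshold. The lack of a passing ratio therefore decides nothing for any single pair. Rpl3, the main partner of the muscle gene Rpl3l, had a log2 fold change of 0.019.

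For Rps27 and Rps27rt the tags may be shared between rows, since all of the 251 stretches of 50 bases in the last 300 bases of Rps27 recur in other genes, Rps27rt among them. Their start regions share 38 bases without a mismatch, shown in capitals as far as they fall in these windows of 40 bases, which begin 18 bases before the annotated start (RefSeq, GRCm38.p6).
Rps27 (chr3:90213627-90213666, - strand): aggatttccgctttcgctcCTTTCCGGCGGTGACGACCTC
Rps27rt (chr9:114982718-114982757, - strand): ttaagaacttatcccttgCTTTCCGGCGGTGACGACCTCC
Upstream of the capitals the sequences part.

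Levels ran from 2.68 to 1465 CPM, as tag counts that are not divided by length. The 5 highest were Rps29 (1465 CPM), Rps21 (1439 CPM), Rps20 (1256 CPM), Rps12 (1254 CPM) and Rpl23a, a docking point for the signal recognition particle (1201 CPM), and their log2 fold changes lay between -0.056 and -0.0083. Rps20 and Rps12 did not differ beyond their spread, and the ranges of Rps29 and Rps21 also overlapped. The 5 lowest were Rpl6l (2.68 CPM), Rps3a2 (2.83 CPM), Rpl37rt (3.04 CPM), Rpl32l (4.15 CPM) and Rps12l1 (5.0 CPM), rows whose symbols name copies of the main genes. All 7 members under 10 CPM had fold changes above 0, but only 1 of them had an interval within 0.5 of 0. Rpl37rt and Rpl6l turned below 0 when control 2 and Rax-SmoCKO 2 were left out.

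Between libraries of a genotype, the 3 members with the lowest SD of log2 CPM were Rps12 (0.028), Rps13 (0.033) and Rps29 (0.039), against a median of 0.089 over members and 0.19 over all genes. At or over 50 CPM, where genes of low count are left out, these medians were 0.080 and 0.10. Rps12 measured 1243, 1283, 1257 and 1255 CPM in controls and 1239, 1264, 1280 and 1212 CPM in Rax-SmoCKO retinas. The 3 highest SDs belonged to Rpl37rt (0.46), Rpl6l (0.42), both near 3 CPM, and Rpl21 (0.43).

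Rpl21, an abundant gene of the large subunit (chr5:146832890-146837032), fell into separate levels within each genotype. It measured 155, 99.4, 158 and 91 CPM in controls 1 to 4 and 93.1, 179, 168 and 168 CPM in Rax-SmoCKO 1 to 4. Controls 2 and 4 and Rax-SmoCKO 1 were thus at 91 to 99.4 CPM and the other 5 libraries at 155 to 179 CPM. In the annotated transcript searched, 1856 bases long, no stretch of 50 bases in the last 300 recurs in another gene's transcript. Whether the tags fall there was not tested. The 15 rows named as pseudogenes of Rpl21 held 15.3% of the joint counts, and no overlapping gene reached 5 CPM. The genotypes overlapped throughout (log2 fold change 0.28, interval -0.18 to 0.73, edgeR adjusted p 0.72).

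A second set of libraries stood apart for Rps2 and Rps18, both on chromosome 17 (chr17:24718116-24721929 and chr17:33951999-33956001). Rps2, at the mRNA entry of the small subunit, measured 308, 337, 456 and 325 CPM in controls and 315, 489, 471 and 290.3 CPM in Rax-SmoCKO retinas. Rps18, in the head of the same subunit, measured 278, 280.3, 373 and 307 CPM in controls and 282, 397, 411 and 256 CPM in Rax-SmoCKO retinas. Control 3 and Rax-SmoCKO 2 and 3 were the 3 highest libraries for both genes. Their log2 fold changes (0.13 and 0.12, edgeR adjusted p 0.85 and 0.85) turned below 0 with the covariate for Y-linked counts and without the 2 libraries richest in lens genes.

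These libraries were set apart by copies elsewhere in the genome too. Rps18-ps6 (chr13:97760072-97760632), which shares 37.5% of the 3′ stretches of Rps18, was at 1.02, 0.864 and 1.89 CPM in control 3 and Rax-SmoCKO 2 and 3 and at 23.9 to 39 CPM in the other 5. Gm10263 (chr13:73317844-73318143), a processed pseudogene that shares 1.2% of the stretches of Rps28, followed the same split, at 3.07, 4.10 and 4.32 CPM in those libraries against 33.7 to 52.3 CPM. Rps28 itself measured 543, 584, 549.7 and 550.3 CPM in controls and 521, 606, 594 and 523 CPM in Rax-SmoCKO retinas and did not follow it. Adding Rps18-ps6 to Rps18 left those 3 libraries the highest, at 374 to 413 CPM against 295 to 337 CPM.

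Rplp1, a P stalk protein gene on chromosome 9 (chr9:61913284-61914542), and the processed pseudogene Gm11942 on chromosome 4 (chr4:32964888-32965232) moved in opposite directions between libraries. Rplp1 measured 941, 756, 734 and 976 CPM in controls 1 to 4 and 906, 986, 966 and 681 CPM in Rax-SmoCKO 1 to 4. Gm11942, which shares 23.5% of its 3′ stretches, measured 74.3, 568, 525 and 68.8 CPM in controls and 83.5, 82.9, 76.9 and 527 CPM in Rax-SmoCKO retinas. Controls 2 and 3 and Rax-SmoCKO 4 were low for the gene and high for its copy. Their sum was 989 to 1069 CPM in the other 5 libraries and 1209 to 1323 CPM in these 3. The row Gm10073 was lower in the same libraries, at 132 to 166 CPM against 223 to 245 CPM.

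Rpsa, at the mRNA exit of the small subunit, was low in the libraries where a row named as its pseudogene was high. Controls 1 to 4 measured 279, 231, 276 and 283 CPM, and Rax-SmoCKO 1 to 4 measured 274, 242, 306 and 263 CPM. The row Rpsa-ps10 on chromosome 3 carries the gene's name but shares 0% of the 3′ stretches searched, which came from an Rpsa transcript of 1938 bases. It was at 108 CPM in both control 2 and Rax-SmoCKO 2 and at 48.3 to 58.7 CPM in the other 6. Both libraries were the lowest for Rpsa, while the sum of gene and copy, at 339 and 349.7 CPM, lay within the 312 to 359.5 CPM of the other 6. The same 2 libraries held the most lens counts, and the part of these in the difference was not tested.

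**Figure D4:**
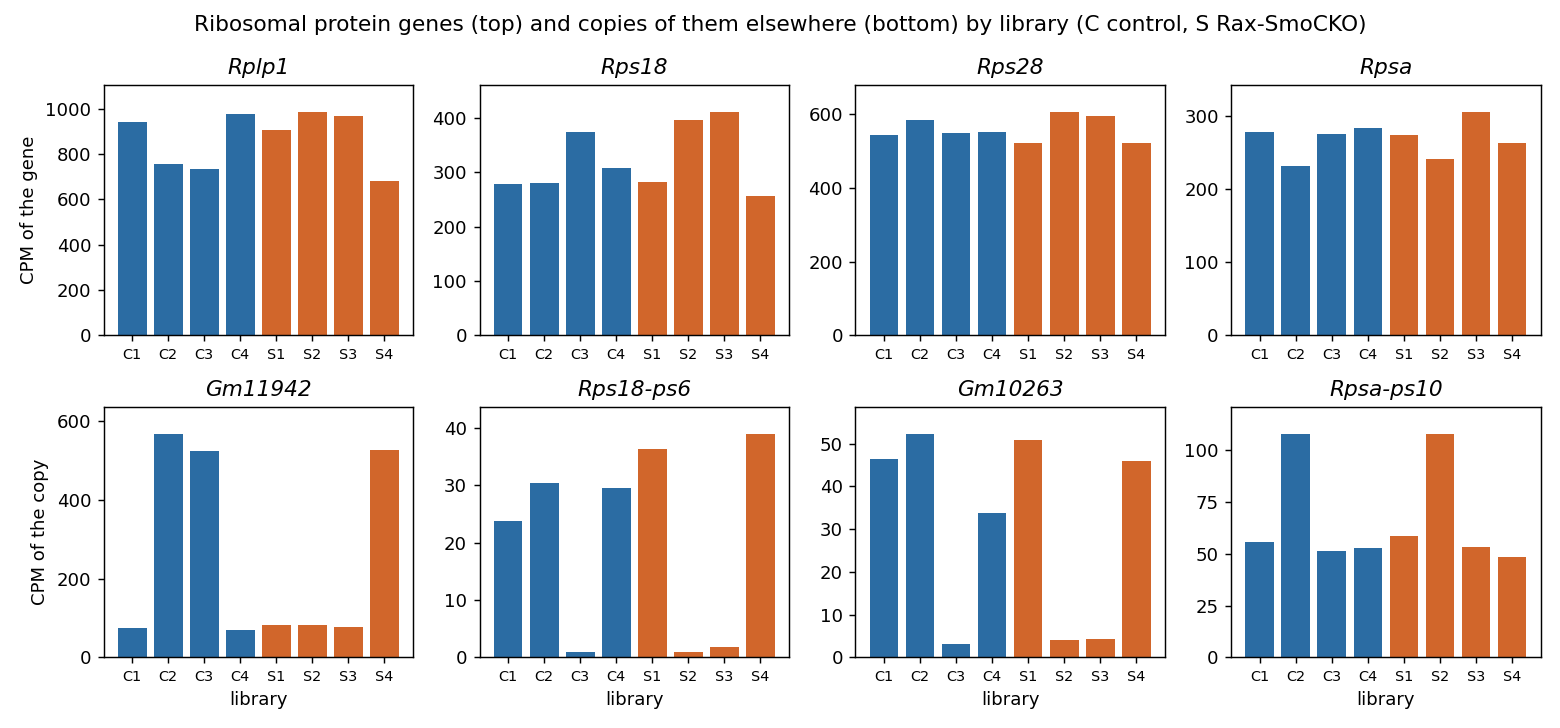
CPM of Rplp1, Rps18, Rps28 and Rpsa in each library (top) and of Gm11942, Rps18-ps6, Gm10263 and Rpsa-ps10, rows that share sequence or name with them (bottom; C1 to C4, control; S1 to S4, Rax-SmoCKO). Gm11942 is over 500 CPM in C2, C3 and S4 where Rplp1 is lowest, and Rps18-ps6 and Gm10263 are under 5 CPM in C3, S2 and S3.

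These copies were found by examining all 925 pairs of a member with a row that shares a stretch of 50 bases or carries its name followed by -ps. Of 139 pairs whose second row reached 20 CPM in some library, 8 differed more than 2-fold between libraries, concerning 8 members. Besides those described, Rps24-ps3 measured 49.1, 16.6, 1.02 and 1.40 CPM in controls and 3.10, 18.1, 52.1 and 21.7 CPM in Rax-SmoCKO retinas, while Rps24 measured 485, 400.4, 656 and 569.9 CPM and 604, 414, 543 and 407 CPM. The 3 lowest libraries for Rps24 (control 2 and Rax-SmoCKO 2 and 4) were intermediate for its copy. Gm5963, a copy of Rps21, was at 12 to 24.8 CPM, and the other pairs, Spc24 with Rpl23 and Uty with Rps16, share under 1% of the stretches. Rps27a, which encodes ubiquitin fused to a small subunit protein, was low in Rax-SmoCKO 4 alone, at 272 CPM against 400.2 to 508 CPM, and its partner rows did not rise there (221 CPM against 233 to 270.3 CPM). The splits of Rpl21, Rps2, Rps18, Rplp1, Rpsa and Rps24 each fell across both genotypes, and their cause was not tested.

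Shared 3′ ends reach far into the group. Of 90 members with an annotated transcript, 25 shared no stretch with another gene, 47 shared at least 50% and 8 at least 90%. Rows named as pseudogenes of members, 321 in all, took 0.449% to 0.506% of the counts. For Rps10, a gene of the small subunit that measured 8.0 to 9.29 CPM, 96.6% of the joint counts lay in Rps10-ps rows, and for Rpl10, Rpl10a, Rpl36 and Rps6 the share was 62.1%, 61.6%, 52.1% and 50.9%. These members are uncertain as single genes. With the pseudogene rows added, 0 members were called and the median log2 fold change was 0.016. In all, 17 members overlap a gene of at least 5 CPM, for 15 of them one transcribed the other way, and no source used here says if strand entered the counting.

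The genes that build and serve the ribosome were set beside its proteins. The list of 71 ribosome biogenesis genes had 63 members below 0, with a median log2 fold change of -0.078. None was called, and 17 (23.9%) were lower and 0 higher at an unadjusted p under 0.05, against 4.68% lower and 4.8% higher among all genes. The median level of the list was 61.8 CPM. Of all 4832 genes at or over 50 CPM, 390 were lower and 258 higher at this p (13.4% in either direction). Its summed level was 8854 to 9118 CPM in controls and 7937 to 8582 CPM in Rax-SmoCKO retinas, without overlap. Progenitor markers moved the same way, and their part in this was not tested.

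Nop56, a core protein of box C/D particles that guide the methylation of ribosomal RNA, measured 80.9, 88.5, 91 and 88.4 CPM in controls and 63.0, 74.7, 73.6 and 55.7 CPM in Rax-SmoCKO retinas. Its log2 fold change was -0.38 (interval -0.58 to -0.19, edgeR adjusted p 0.19), and it passed with the covariate for Y-linked counts (-0.55, adjusted p 0.023) and without a filter on low counts. Dkc1 and Gar1, of the box H/ACA particles that guide pseudouridine, had values of -0.20 and -0.26 (adjusted p 0.22 and 0.23). The Rax-SmoCKO libraries were all below the controls for these 3 genes, which had the smallest p of the list. Over the list of 71, the groups did not overlap for 11 genes lower and 0 higher (15.5%), against 3.03% lower and 2.66% higher among all genes. Of the 4832 genes at or over 50 CPM, 254 were apart and lower and 138 apart and higher (8.11% in either direction).

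Initiation factors had 18 of 22 members below 0 (median -0.076, 0 called). At an unadjusted p under 0.05, 3 were lower and 0 higher, namely Eif3d (-0.23), Eif5 (-0.11) and Eif4g1 (-0.11). These are 13.6% of the list, against 4.68% lower among all genes. At or over 50 CPM, 13.4% of all genes had such a p in either direction, and the median level of the list was 212 CPM. Elongation factors and other genes with TOP transcripts were split, with 11 above and 10 below (median 0.0053, 0 called). At an unadjusted p under 0.05, 1 was higher and 2 were lower (14.3%, against 9.48% of all genes and 13.4% at or over 50 CPM). The groups did not overlap for 1 gene, which was higher (4.76%, against 5.7% of all genes). Within that list Eif3e was at 232 to 262 CPM in controls and 263 to 277 CPM in Rax-SmoCKO retinas (0.13, adjusted p 0.50), whereas the snoRNA host gene Snhg1 (-0.41) and the poly(A)-binding protein gene Pabpc1 (-0.12) were below 0. Of 13 genes of mTORC1 and LARP1 control, 10 lay below 0 and 0 had an unadjusted p under 0.05, the smallest being those of Larp4 (-0.13), Eif4ebp2 (-0.10) and Rps6kb2 (-0.21). The mitochondrial ribosome, encoded by a separate gene set, had 52 of 80 genes below 0 (median -0.036, 0 called), or 35% above 0 against 49.6% of all genes, and 3 genes, all lower, had an unadjusted p under 0.05 (3.75% against 9.48%), with Mrps27 (-0.30), Mrpl1 (-0.22) and Mrps18c (-0.22) first.

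Among ribosomal proteins with other symbols, Fau and Rack1 were also not called. Fau, which encodes a ubiquitin-like fusion to a small subunit protein, measured 260.4 to 302 CPM in controls and 276 to 313 CPM in Rax-SmoCKO retinas (0.083, adjusted p 0.74), and the small subunit scaffold Rack1 had 0.028. Whether the biogenesis genes and the ribosomal protein genes differ in their response was not tested.

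**Figure D5:**
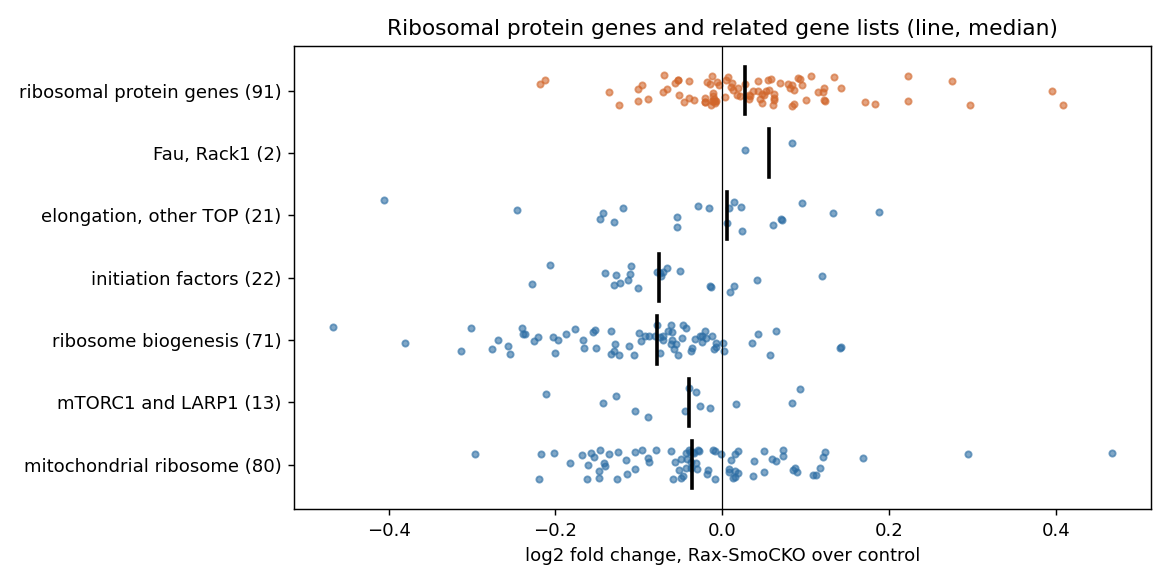
Log2 fold change, Rax-SmoCKO over control, of the tested genes in the ribosomal protein group and 6 related lists, with a line at each median (number of genes in brackets; vertical scatter is for display). The medians are 0.027 for ribosomal protein genes, -0.078 for ribosome biogenesis and -0.076 for initiation factors.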

How the data were processed

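The authors aligned trimmed 3′-Tag-Seq reads to the mouse genome, and deposited whole-number counts per Ensembl gene from featureCounts. STAR 2.7.0e and limma are the tools, and mm10, GRCh38 and GRCm38 the builds, in the processing notes of the submitters. The sources used here do not state whether molecular identifiers were collapsed. The table also holds 2 columns of the authors' group means, which were not used. Columns were matched to samples by name, 4 libraries per genotype. The study's methods state 5 Rax-SmoCKO samples, of which 4 were analysed here. The 525 rows with no symbol stayed in the library totals, of which they made up 0.094%.

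Genes that reached 5 counts in 4 or more libraries were tested with edgeR 4.0.16 in R 4.3.3 (TMM scaling, quasi-likelihood test on genotype, Benjamini-Hochberg adjustment over 14730 genes, threshold 0.05). Standard errors follow from the log2 fold change and the square root of its F statistic. CPM use TMM-scaled totals. Pair ratios were compared by exact permutation over the 8 libraries. Binomial intervals are exact and cover counting error only. The scripts were tested on simulated data. DESeq2 1.42.0, limma-voom (limma 3.58.1), other scalings and filters, a replicate block, a covariate for Y-linked counts, added pseudogene rows and leaving out libraries were alternatives.

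The members and gene lists were chosen with earlier results of these data known. Named were members past the threshold, the 5 with the smallest p in each direction, the 5 highest and 5 lowest in mean CPM, the 3 highest and 3 lowest in spread, pair members, matched genes that are no ribosomal protein, members with a listed role, Smo, Gli1 and up to 3 genes of each related list. Rpl21, as part of the spread rule, led to the search for copies. Rps18, Rps24, Rps27a, Rpl34, Rps23rg1, the copies, Rpl10a, Rpl36, Rps6 and Gm9385 were chosen after their values were seen. Results for a few genes are not reported here. Gene positions and transcripts are from GENCODE M21 (GRCm38), and start windows from RefSeq.

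No pair of libraries of a genotype agreed within sampling noise (chi-square over genes, 2.15 to 8.37 per degree of freedom).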

Additional observations from a re-analysis of the deposited data

Results flagged for a closer look

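Among 100 groups of 4 libraries examined for a single library far from the other 3, 6 were picked out, and chance picks out about 1 in 20. That rate does not apply to items chosen for their spread or after their values were seen, such as Rpl21, Rpl34 and the copies. Rpl22l1 was low in Rax-SmoCKO 4, at 183 CPM against 218 to 223 CPM. Rpl21 was low in Rax-SmoCKO 1, at 93.1 CPM against 168 to 179 CPM. Rpl34 was low in control 1, at 199 CPM against 211 to 213 CPM. Rpsa was low in control 2, at 231 CPM against 276 to 283 CPM, where its copy Rpsa-ps10 was high, at 108 CPM against 51.4 to 55.7 CPM. Gm11942, the copy of Rplp1, was high in Rax-SmoCKO 4, at 527 CPM against 76.9 to 83.5 CPM in the other Rax-SmoCKO libraries.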

How the results depend on the processing

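The count of 0 members called held under every alternative but one, since without a filter on low counts 2 were called (Rps4l at 0.40 and Rps9 at 0.41, with Snhg1 at -0.41 and Nop56 at -0.38 among the related genes). The replicate number as a block also gave 0 calls (median log2 fold change 0.027) and reversed no named gene; same-numbered libraries correlated at -0.056 to 0.24, and 2 of 8 correlated best with their own number, so the numbers were not taken as pairs. The covariate for Y-linked counts moved the median to -0.040, with 30 members above 0 and 8 at an unadjusted p under 0.05. It turned Rpl37rt to -0.049, Rpl3 to -0.061, Rpl36al to -0.11, Rps27rt to 0.027, Rplp1 to -0.10, Rps18 to -0.20, Rps2 to -0.24, Rps28 to -0.093 and Rack1 to -0.0060, and Nop56 passed at -0.55. Leaving out the 2 libraries with Y-linked counts, chosen after seeing the data, gave a median of -0.036, with 31 above 0 and 8 at an unadjusted p under 0.05, and turned Rpl37rt to -0.045, Rpl3 to -0.057, Rpl36al to -0.11, Rps27rt to 0.030, Rplp1 to -0.097, Rps18 to -0.20, Rps2 to -0.23, Rps28 to -0.090 and Rack1 to -0.0022. Without the 2 libraries richest in lens genes, Rps20 turned to 0.0031, Rpl37rt to -0.21, Rps3a2 to -0.054, Rpl6l to -0.051, Rps27rt to 0.0094, Rplp1 to -0.049, Rps18 to -0.011, Rps2 to -0.016 and Rps28 to -0.00090. Added pseudogene rows turned Rpl3 to -0.0043, limma-voom turned Rps27 to 0.0016, and DESeq2 called Dkc1 (-0.20). None of the turned values was called in either direction. The cause was not tested. Leaving out each library in turn gave 0 members called, medians of 0.0036 to 0.054, 0 related genes called and a difference in the share of counts of -0.012 to 0.14 percentage points (0.062 with all libraries). Named genes that crossed 0 were Rpl22 (-0.044 to 0.032), Rpl22l1 (-0.096 to 0.0071), Rpl3 (-0.017 to 0.066), Rpl36al (-0.11 to 0.14), Rpl37rt (-0.16 to 0.30), Rpl38 (-0.064 to 0.0062), Rpl6l (-0.10 to 0.28), Rplp1 (-0.0094 to 0.16), Rps12 (-0.023 to 0.0016), Rps13 (-0.029 to 0.0017), Rps20 (-0.036 to 0.014), Rps21 (-0.038 to 0.023), Rps24 (-0.21 to 0.021), Rps27 (-0.058 to 0.088), Rps27a (-0.16 to 0.092), Rps27l (-0.070 to 0.0014), Rps27rt (-0.047 to 0.022), Rps28 (-0.028 to 0.052) and Rpsa (-0.041 to 0.075). Pair differences ranged from -0.17 to 0.040 for Rpl36al, -0.087 to 0.020 for Rps27l and -0.11 to 0.068 for Rps27rt. Members under 10 CPM are limited by depth.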
